A study of Homo sapiens with 23 samples.

Results

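CDKN1B and 3 genes beside it on chromosome 12, GPR19, APOLD1 and DDX47, were followed through every library of a lymphoma cell line treated with CDK-TCIP1. They are 4 of the 58592 genes for which estimated counts could be summed. CDKN1B was the starting gene and the others are its protein-coding neighbours on either side, and both CDKN1B and APOLD1 were already known to stand high after 4 h of CDK-TCIP1. The genes were thus chosen by their 4 h levels, in CDK-TCIP1 against vehicle and the comparison compounds, and those values are given as a description with no test, while tests were run on the 2 h libraries and on the comparison compounds. The comparison asks whether the neighbours moved with CDKN1B, and whether what they did could be read-through, which is transcription that runs past the end of one gene into the next.

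The cells were SUDHL5, an established line from a diffuse large B-cell lymphoma of germinal centre type, and poly(A) RNA was sequenced in 23 libraries of 9 groups. CDK-TCIP1 is a chemical inducer of proximity that brings the elongation kinase CDK9 to DNA sites held by the repressor BCL6. Cells received it at 10 nM (2 libraries), 30 nM (4) or 100 nM (3) for 2 h, or at 30 nM for 4 h (3). The comparison compounds Neg1 and Neg2, whose structures the labels do not give, were used at 30 nM for 2 h and for 4 h (2 libraries in each of the 4 groups), and vehicle (DMSO) was harvested at 4 h only (3 libraries). Every group held the same final share of DMSO, and all libraries come from 1 cell line. The libraries held 17396484 to 26373153 estimated counts each. Marker genes of B cells (8 of 8) and of germinal centre B cells (6 of 6) passed the low-count filter, with summed levels of 2026 to 2884 and 1031 to 1252 CPM (CPM, counts scaled to library size by TMM). Replicate 1 of 100 nM had the lowest mean correlation with its group (0.974, where the highest was 0.981). Without it and replicate 1 of Neg2 at 2 h, which an earlier account set apart, the 2 h changes reported below for CDKN1B and APOLD1 kept their side of the threshold.

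CDKN1B encodes p27, a protein that binds complexes of cyclins with cyclin-dependent kinases and holds cells back from S phase. Forkhead (FOXO) factors are known activators of its transcription, and the ubiquitin ligase subunit SKP2 marks the protein for degradation. APOLD1 encodes a small membrane protein with an apolipoprotein L domain and is known as an early response gene of endothelial cells. DDX47 encodes an RNA helicase of ribosome production, and GPR19 an orphan G protein-coupled receptor.

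In the GENCODE 29 annotation of GRCh38, CDKN1B (ENSG00000111276) spans chr12:12715058-12722371 on the plus strand, and its main transcript CDKN1B-201 starts at 12717124. The deposited length of CDKN1B-201 was 2411 bases, where this annotation has 2657, so the model that was counted differs from the one described. GPR19 (ENSG00000183150, chr12:12660891-12696207) is on the minus strand, with its start 20917 bases from that of CDKN1B-201, so the pair points away from each other. APOLD1 (ENSG00000178878, chr12:12725917-12829975) follows on the plus strand, 3546 bases after the end of CDKN1B. DDX47 (ENSG00000213782, chr12:12813316-12829981) lies further along the same strand, 90945 bases from the end of CDKN1B, and 16660 bases of it fall inside the bounds of APOLD1. The annotated APOLD1 transcripts differ in where they start and end. APOLD1-201 joins a first exon of 166 bases (12725931-12726096), close to CDKN1B, to a second exon (12786909-12791466) that holds most of the mRNA. APOLD1-202 shares that second exon and starts 59676 bases further downstream, from an exon of 88 bases. APOLD1-203 and APOLD1-204 start near CDKN1B, continue into exons of DDX47 and are annotated as targets of nonsense-mediated decay.

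**Figure D1:**
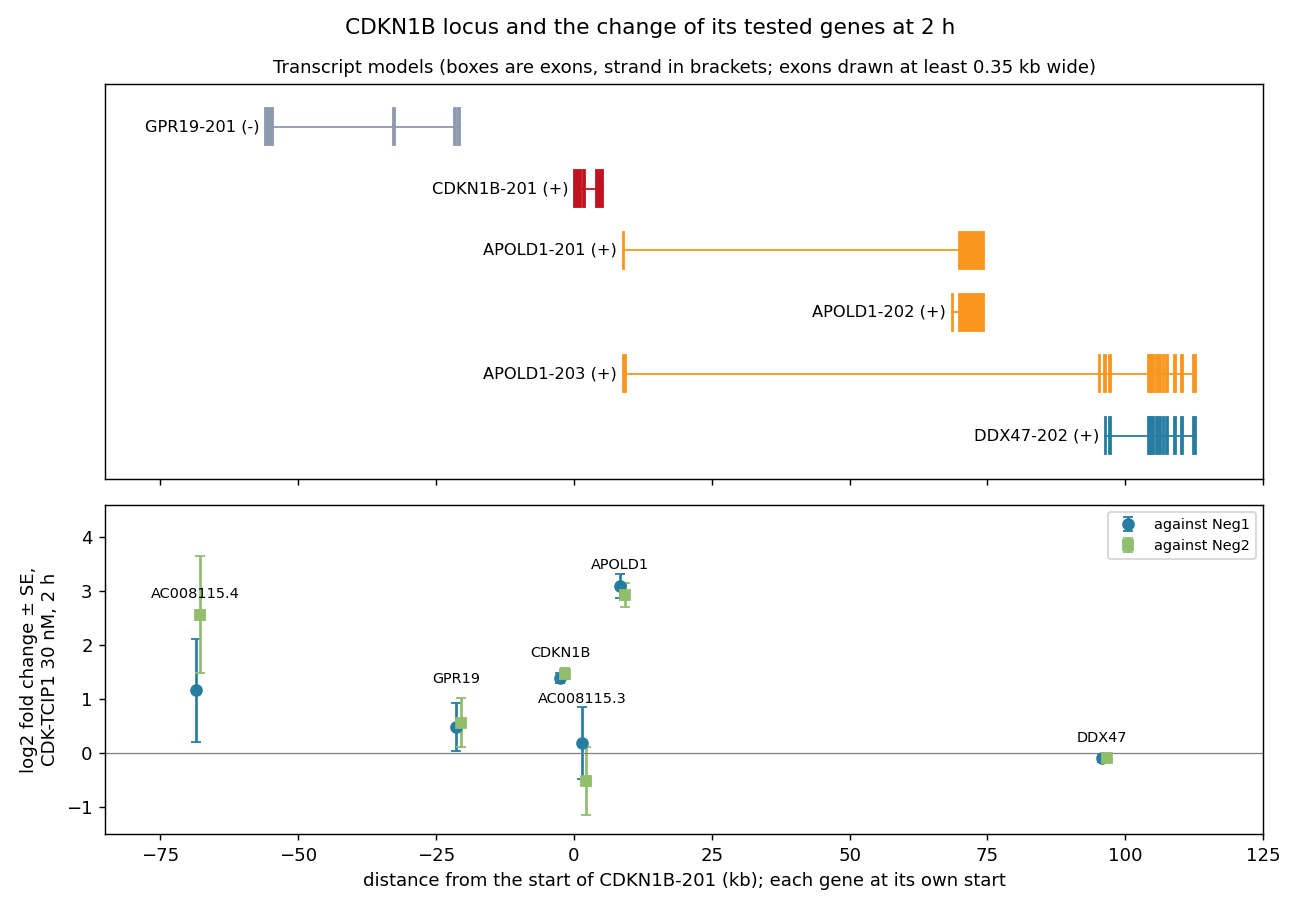
Transcript models of the 4 genes (top, boxes are exons) and the log2 fold change ± SE of each tested gene in the same stretch (bottom), for CDK-TCIP1 at 30 nM for 2 h against Neg1 (circles) and against Neg2 (squares), over distance in kb from the start of CDKN1B-201. CDKN1B and APOLD1 stand above 0 against both compounds, and DDX47, whose exons lie inside the APOLD1 bounds, stands close to 0.

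Joins between exons are shown because the split of APOLD1-201 from APOLD1-202 below rests on their short first exons. APOLD1-203 and APOLD1-204 begin with nearly the same first exon as APOLD1-201. They lack its long second exon and hold exons of DDX47. Each line gives the last 15 bases of the upstream exon in lower case and the first 15 of the next exon in capitals, 5′ to 3′, from the GENCODE 29 transcripts. For APOLD1-203 the join shown is that of its second exon (12726297-12726373) to the exon after it.
APOLD1-201: ccctgccttggaaagGGAATGGAGAGGCCG
APOLD1-202: agacagaagtgaatgGGAATGGAGAGGCCG
APOLD1-203: gcctttgatttctggTGACGGACACCAGAT
The first exon makes up 3.51% of APOLD1-201 and 1.89% of APOLD1-202, so most reads of these transcripts fall in the exon they share and match both.

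The bases before the starts of APOLD1 are shown because APOLD1 has a start beside CDKN1B and another far from it, and the levels below differ between them. Sequences are from RefSeq (GRCh38.p14), plus strand, 5′ to 3′, chr12:12725667-12725916 for the upstream start and chr12:12785409-12785606 for the downstream start. Capitals mark matches to the motifs searched on both strands, which were CCAAT, the GC box GGGCGG, the TATA box TATAAA, the E-box CACGTG, the FOXO motif GTAAACA and the BCL6 motif TTCNNNGAA.
APOLD1 upstream start: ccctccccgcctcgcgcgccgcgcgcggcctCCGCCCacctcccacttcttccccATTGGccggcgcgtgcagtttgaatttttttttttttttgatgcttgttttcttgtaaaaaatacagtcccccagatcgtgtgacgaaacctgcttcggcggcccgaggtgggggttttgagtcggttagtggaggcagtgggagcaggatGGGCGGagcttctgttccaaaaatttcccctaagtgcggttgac
APOLD1 downstream start: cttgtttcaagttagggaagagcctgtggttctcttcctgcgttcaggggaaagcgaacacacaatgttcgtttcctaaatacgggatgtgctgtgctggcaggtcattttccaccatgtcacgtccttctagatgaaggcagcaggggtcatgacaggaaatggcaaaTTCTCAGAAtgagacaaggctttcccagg
The upstream stretch held a GC box on each strand and a CCAAT box on the minus strand, and its GC content was 56.8%. The downstream stretch held 1 match to TTCNNNGAA, at bases -81 to -73 from the RefSeq start. The last 52 bases before that start are exonic in GENCODE and are not printed, and in them a TATA box stood at -30 to -25 and a CCAAT box on the minus strand at -46 to -42. The 250 bases before the RefSeq start of CDKN1B (chr12:12717118-12717367, not printed because GENCODE places most of them in the first exon of CDKN1B-201) held 2 CCAAT boxes and a GC box, with a GC content of 64.4%. No window of the members held GTAAACA or CACGTG. Of all 35116 promoters of 250 bases, 42.6% held a GC box, 32.0% CCAAT, 10.7% TATAAA and 6.57% TTCNNNGAA. A match of letters is a description of the window and does not show that a factor binds there. RefSeq entries matched 3 of the 4 genes.

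CDKN1B at 2 h was higher in every library with CDK-TCIP1 than in any with Neg1 or Neg2. At 2 h and 30 nM the 4 libraries held 101, 89.0, 79.3 and 87.3 CPM. The Neg1 libraries of the same time held 33.9 and 34.0 CPM, and the Neg2 libraries 31.9 and 32.3. The groups did not overlap, and the lowest CDK-TCIP1 library stood well over the highest control. The share of all genes whose groups separate in this way is not given, here or for the genes and transcripts below. CDKN1B rose 2.63-fold against Neg1, a log2 fold change of 1.39 ± 0.10 (SE; 95% interval 1.19 to 1.59; edgeR adjusted p = 1.06e-10, n = 4 and 2). Against Neg2 it rose 2.78-fold (1.47 ± 0.10, interval 1.28 to 1.67, edgeR adjusted p = 3.5e-11, n = 4 and 2). Both comparisons use the same 4 CDK-TCIP1 libraries, so they are not independent of each other. In the background of all 17743 genes tested, 27.8% were called against Neg1 (13.6% called higher) and 30.5% against Neg2 (14.8% higher), where called means an adjusted p under 0.05, so a call alone was common at this dose. Nothing in the labels tells whether replicates came from separate cultures, so the p-values here speak of the spread among these libraries, part or all of which may be technical.

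APOLD1 was low without CDK-TCIP1, and its fold change was larger than that of CDKN1B. Its level was 55.6, 53.7, 44.9 and 45.7 CPM with CDK-TCIP1 at 30 nM for 2 h, from 863 to 1402 estimated counts. It was 6.91 and 4.69 CPM with Neg1 and 8.0 and 5.21 CPM with Neg2, from 90.5 to 159 counts. The groups did not overlap. The log2 fold change was 3.10 ± 0.22 against Neg1 (8.60-fold, interval 2.65 to 3.56, edgeR adjusted p = 1.72e-10, n = 4 and 2). It was 2.93 ± 0.22 against Neg2 (7.62-fold, interval 2.48 to 3.37, edgeR adjusted p = 2.84e-10, n = 4 and 2). In this fit of summed counts, the intervals of APOLD1 and CDKN1B did not overlap in either comparison. The difference between the 2 genes was not itself tested. When counts were rebuilt from the deposited TPM values, which weight short transcripts more, the APOLD1 change was 1.68 against Neg1 and 1.93 against Neg2 (adjusted p = 3.06e-04 and 7.36e-05). When transcripts sharing exonic bases with DDX47 were left out of the APOLD1 total, its change was 3.96 and 4.08. Over the 7 alternative settings CDKN1B changed by 1.34 to 1.46 against Neg1 and by 1.39 to 1.55 against Neg2. The excess of APOLD1 over CDKN1B was thus much smaller with counts rebuilt from TPM.

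DDX47 did not pass the test in either comparison at 2 h. It held 93.6, 93.1, 95.5 and 94.9 CPM with CDK-TCIP1 at 30 nM, against 98.1 and 104 CPM with Neg1 and 100.0 and 101 CPM with Neg2. All 4 CDK-TCIP1 libraries lay below all 4 controls, by a few percent, an order whose frequency among all genes is not given. The log2 differences were -0.10 ± 0.06 (interval -0.23 to 0.03, edgeR adjusted p = 0.282) and -0.09 ± 0.06 (interval -0.22 to 0.04, edgeR adjusted p = 0.315). DDX47 was the most abundant of the 4 genes in cells without CDK-TCIP1, with a median of 78.2 TPM, a unit that divides by transcript length, beside 19.9 for CDKN1B, 4.09 for APOLD1 and 1.86 for GPR19.

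GPR19 was expressed at 16 to 87 estimated counts per library, too few for a precise estimate. The CDK-TCIP1 libraries at 30 nM and 2 h held 2.69, 1.85, 2.29 and 1.19 CPM. Those with Neg1 held 1.23 and 1.65 CPM and those with Neg2 1.31 and 1.41. Of the 4 CDK-TCIP1 libraries 3 lay above all controls and 1 lay below them. Its log2 differences of 0.48 ± 0.45 (interval -0.44 to 1.41) and 0.56 ± 0.45 (interval -0.36 to 1.49) did not pass the edgeR test (adjusted p = 0.477 and 0.384). Each interval reached just past the change of CDKN1B in the same comparison (1.39 and 1.47), so a rise of that size lay within the error at this depth.

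**Figure D2:**
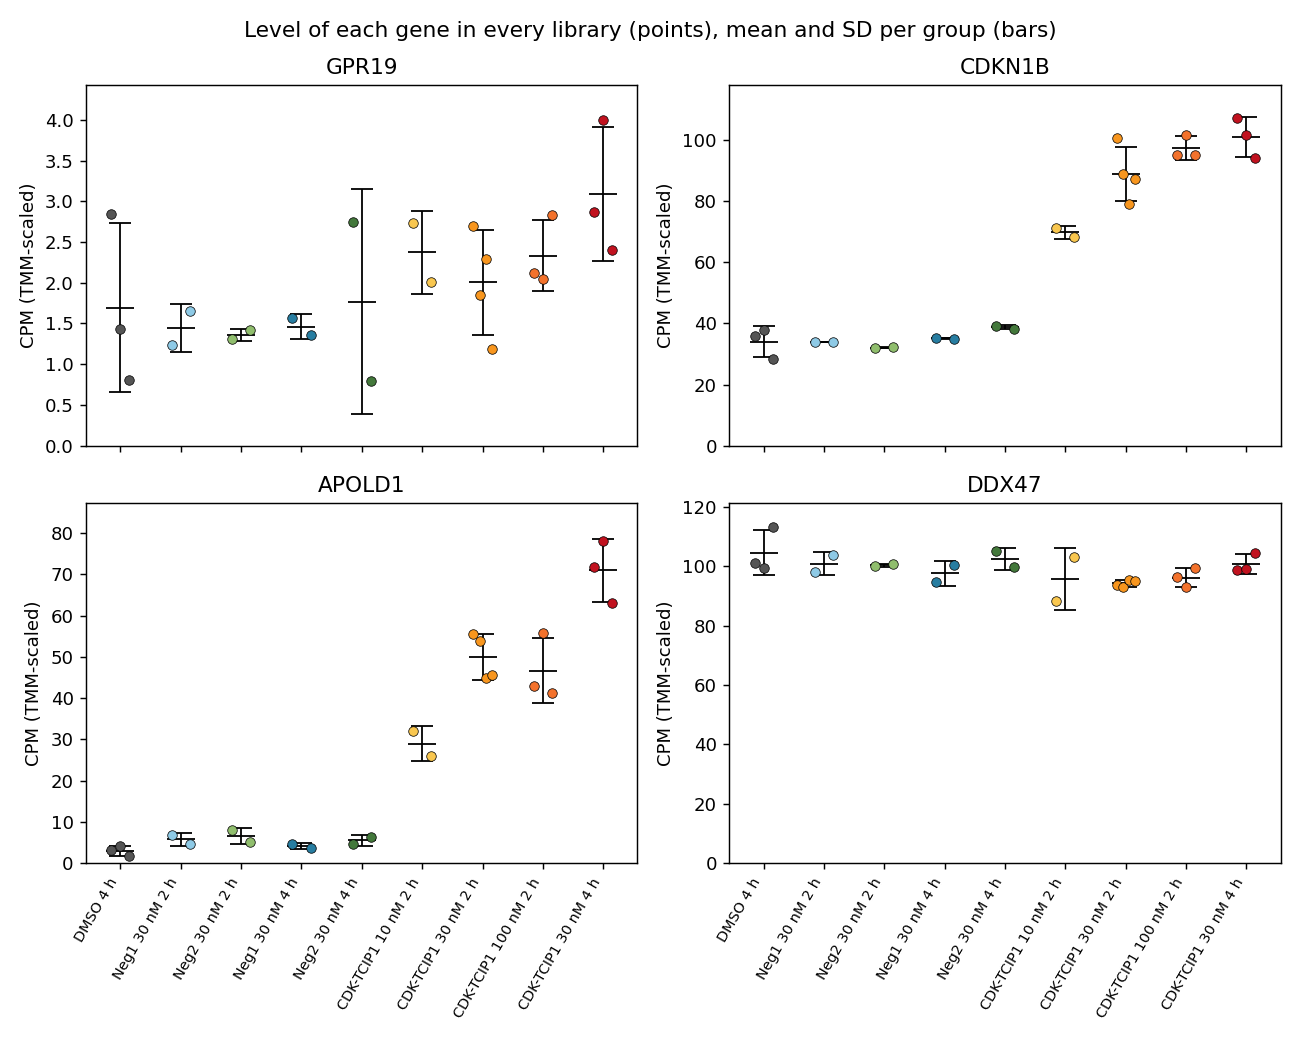
Level of each of the 4 genes in CPM on linear axes from 0, for each of the 23 libraries (points) in the 9 groups, with the group mean (horizontal tick) and SD (bars). CDKN1B and APOLD1 separate the 12 libraries with CDK-TCIP1 from the 11 without it, whereas DDX47 stays between 88.4 and 113 CPM and GPR19 between 0.791 and 4.00 CPM. The 12 include those of 4 h, whose levels entered the choice of CDKN1B and APOLD1.

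Over the 9 groups CDKN1B formed a low set and a high set. The mean was 32.1 ± 0.251 CPM (SD, n = 2) with Neg2 at 2 h, 34.0 ± 0.049 (n = 2) with Neg1 at 2 h, 34.1 ± 5.02 (n = 3) with DMSO, 35.1 ± 0.158 (n = 2) with Neg1 at 4 h and 38.7 ± 0.657 (n = 2) with Neg2 at 4 h. These 5 groups lay within the range of the DMSO libraries, 28.4 to 37.8 CPM, except for Neg2 at 4 h at 38.3 and 39.2. The CDK-TCIP1 groups followed at 69.8 ± 2.02 CPM (n = 2) for 10 nM, 89.1 ± 8.88 (n = 4) for 30 nM and 97.4 ± 3.86 (n = 3) for 100 nM at 2 h, and 101 ± 6.51 (n = 3) for 30 nM at 4 h. The last 3 overlapped each other, and the 10 nM libraries (71.2 and 68.4) lay below all of them. APOLD1 gave another order among the high groups. Its mean was 28.996 ± 4.15 CPM (n = 2) at 10 nM, 46.6 ± 7.92 (n = 3) at 100 nM and 49.96 ± 5.47 (n = 4) at 30 nM for 2 h, and 71.0 ± 7.62 (n = 3) at 30 nM for 4 h. The 30 and 100 nM groups overlapped, while all 3 libraries of 4 h (71.9, 78.1 and 63.0) lay above every library of 2 h. The lowest group was DMSO at 2.98 ± 1.25 CPM (n = 3), and the libraries without CDK-TCIP1 ranged from 1.66 to 8.0 CPM. DMSO and Neg1 at 4 h overlapped each other, at up to 4.59 CPM, and lay below Neg2 at 4 h and both compounds at 2 h, which overlapped each other from 4.63 CPM upward.

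The step from 10 to 30 nM at 2 h raised both genes, and in the step from 30 to 100 nM neither passed the test. From 10 to 30 nM CDKN1B rose by 0.35 ± 0.09 on the log2 scale (interval 0.17 to 0.54, edgeR adjusted p = 0.0315, n = 4 and 2), and APOLD1 by 0.79 ± 0.18 (interval 0.42 to 1.16, edgeR adjusted p = 0.0164, n = 4 and 2). Only 2.62% of all genes were called in this step, and 0.8% were called higher. These calls were not firm. With counts rebuilt from TPM both were lost (0.33, adjusted p = 0.216 for CDKN1B and 0.57, adjusted p = 0.406 for APOLD1). CDKN1B also lost its call without either 10 nM library (0.37 and 0.33, adjusted p = 0.187 and 0.309) and without replicate 1, 2 or 4 at 30 nM (0.29, 0.36 and 0.36, adjusted p = 0.0908, 0.0579 and 0.055), and APOLD1 without either 10 nM library (0.92 and 0.65, adjusted p = 0.0711 and 0.294). From 30 to 100 nM the changes were 0.13 ± 0.08 for CDKN1B (interval -0.03 to 0.29, edgeR adjusted p = 0.324) and -0.10 ± 0.15 for APOLD1 (interval -0.41 to 0.21, edgeR adjusted p = 0.746), where 12.9% of all genes were called and 4.44% were called higher. GPR19 and DDX47 passed in neither step, with DDX47 at -0.02 and 0.03 and GPR19 at -0.23 and 0.21.

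Neither gene passed the test between the comparison compounds, or between either of them and vehicle. Between Neg1 and Neg2 at 2 h the log2 difference was 0.08 for CDKN1B (edgeR adjusted p = 0.942) and -0.17 ± 0.27 for APOLD1 (edgeR adjusted p = 0.956). Against DMSO at 4 h, CDKN1B differed by 0.04 with Neg1 and 0.18 with Neg2 (edgeR adjusted p = 1 and 0.847). APOLD1 differed by 0.45 ± 0.29 with Neg1 and by 0.87 ± 0.27 with Neg2 (edgeR adjusted p = 1 and 0.785). The Neg2 value had an unadjusted p of 0.00335, the 2 libraries (4.63 and 6.43 CPM) lay above the 3 of DMSO (3.12, 4.16 and 1.66 CPM), and the difference was called when no low-count filter was used (adjusted p = 4.11e-05). In the edgeR fit no gene at all was called in these 3 comparisons (0%), where 1126, 770 and 1063 genes had an unadjusted p under 0.05 and DESeq2 called 1, 1 and 0.

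**Figure D3:**
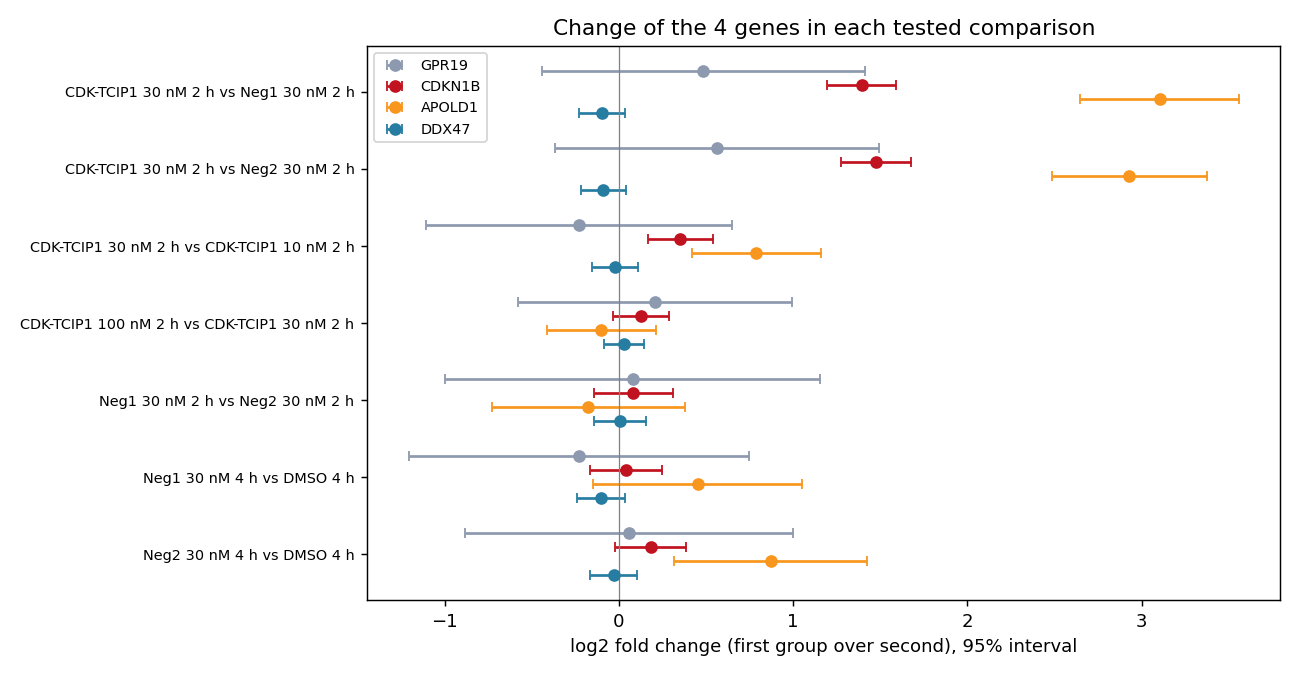
Log2 fold change (points) with its 95% interval (bars) of the 4 genes in the 7 tested comparisons, first group over second. APOLD1 lies to the right of CDKN1B in both comparisons with Neg1 and Neg2, at 3.10 and 2.93 beside 1.39 and 1.47, and the intervals of DDX47 include 0 in all 7 comparisons.

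The comparisons at 4 h and 30 nM entered the choice of CDKN1B and APOLD1. In the CDK-TCIP1 libraries of that time CDKN1B held 107, 102 and 94.2 CPM and APOLD1 71.9, 78.1 and 63.0. Against DMSO, Neg1 and Neg2 of that time the log2 fold changes were 1.57 ± 0.09, 1.52 ± 0.10 and 1.38 ± 0.10 for CDKN1B and 4.56 ± 0.21, 4.11 ± 0.24 and 3.69 ± 0.23 for APOLD1. The 3 values of a gene share the same CDK-TCIP1 libraries. DDX47 differed by -0.05, 0.05 and -0.02. GPR19 stood at 2.87, 4.00 and 2.40 CPM, with differences of 0.85 ± 0.40, 1.08 ± 0.47 and 0.79 ± 0.45, and its libraries overlapped those of DMSO and Neg2. In the background, 36.8%, 31.1% and 31.1% of genes were called in these comparisons.

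Of the APOLD1 transcripts tested, the one called higher at 2 h was APOLD1-201, whose start lies beside CDKN1B. APOLD1-201 held 50.6, 44.6, 42.3 and 34.5 CPM in the 4 libraries of 30 nM and 2 h. With Neg1 it held 3.75 and 2.21 CPM and with Neg2 3.57 and 1.15. The groups were far apart, with no overlap. The log2 fold change was 3.85 ± 0.45 against Neg1 and 4.18 ± 0.47 against Neg2 (edgeR adjusted p = 7.67e-05 and 3.52e-05, n = 4 and 2), in tests that called 3.81% and 4.6% of 71209 transcripts. Over all groups it held 26.2 to 75.9 counts in the 11 libraries without CDK-TCIP1 and 523 to 1414 in the 12 with it. The 12 include those of 4 h, whose levels entered the choice of CDKN1B and APOLD1. APOLD1-202, whose start lies far from CDKN1B, held under 1 count in 15 of the 23 libraries, of which 6 were among the 12 with CDK-TCIP1. Its counts at 30 nM and 2 h were 47.1, 116, 0 and 174, against under 1 count in both Neg1 libraries and 0 and 21.0 counts with Neg2. It was not called (edgeR adjusted p = 0.241 and 0.573, unadjusted p = 0.0242 and 0.192), and no fold is given because the Neg1 libraries hold next to none. At 30 nM and 4 h, where no test was made, all 3 libraries held it, at 59.0, 53.7 and 67.4 counts, against 0 in all libraries of DMSO and Neg1 and 0 and 44.4 with Neg2. The split between APOLD1-201 and APOLD1-202 is an estimate from the short first exons printed above, and at 2 h APOLD1-202 was uneven among the replicates of 30 nM.

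The transcripts that run on from the same start into DDX47 did not pass the test. APOLD1-203 differed by 0.09 ± 0.97 against Neg1 and -0.60 ± 0.95 against Neg2, and APOLD1-204 by -0.62 ± 1.04 and 0.13 ± 1.07 (none called). Both share exons with DDX47, so their counts can hold reads of that gene. As a share of the gene's counts, APOLD1-201 made up 86.0 ± 8.51% with CDK-TCIP1 at 30 nM for 2 h and 42.2 ± 13.9% with Neg1 and Neg2 (SD, n = 4 and 4), and APOLD1-203 4.51 ± 0.323% and 43.9 ± 8.90%. Each pair of groups was fully separated, by 43.8 and -39.4 percentage points, and each gave the smallest p that an exact two-sided permutation test of 4 against 4 allows (0.0286). Adjusted over the 11 transcripts of the 4 genes with enough counts, these became 0.157, so neither share passed. With p no smaller than 0.0286, a share could pass only if most of the 11 transcripts reached that value. The adjusted test could thus hardly decide whether these shares changed. CDKN1B-201 made up at least 99.4% of the CDKN1B counts in every library, and DDX47-202, the main DDX47 mRNA, 89.2 to 95.9% of those of DDX47.

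**Figure D4:**
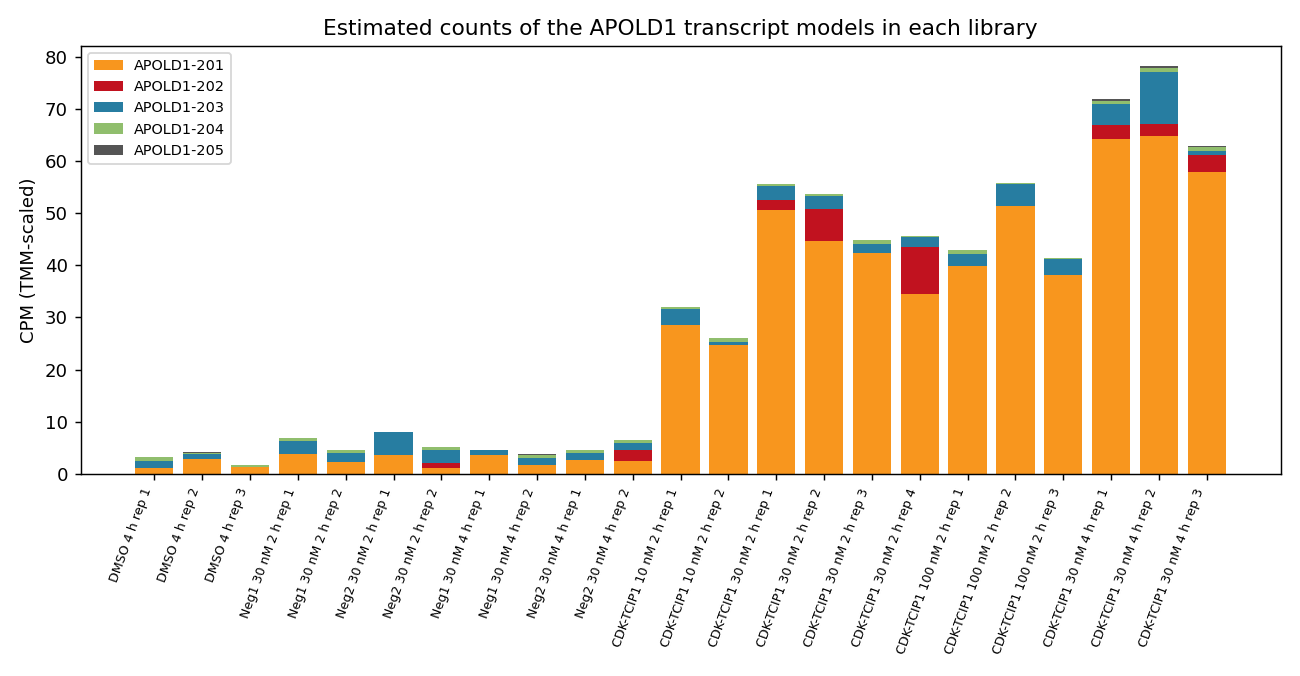
Estimated counts of the 5 APOLD1 transcripts in each of the 23 libraries, stacked, in CPM. APOLD1-201 fills 75.4 to 95.01% of the bar in the 12 libraries with CDK-TCIP1 and 22.2 to 82.2% in the 11 without it, and APOLD1-202 appears in 8 libraries, among them all 3 of CDK-TCIP1 at 4 h and none of DMSO, 10 nM, 100 nM or Neg1 at 4 h.

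Per molecule, APOLD1 remained the rarer of the pair. The ratio of APOLD1-201 to CDKN1B-201 in TPM was 0.232 ± 0.0289 at 30 nM for 2 h (n = 4, lowest 0.189, highest 0.255). It was 0.0423 ± 0.0157 with Neg1 and 0.0357 ± 0.026 with Neg2 of the same time (n = 2 each), with no overlap. It was 0.183 ± 0.0128 at 10 nM and 0.213 ± 0.026 at 100 nM for 2 h, 0.296 ± 0.00818 at 30 nM for 4 h, and 0.0245 ± 0.0102 with DMSO. The ratio was thus not constant over the groups, and its mean was higher in each CDK-TCIP1 group than in each group without it. These ratios were not tested between groups, as the 4 h levels entered the choice of CDKN1B and APOLD1. Over whole genes the ratio moved less, from 0.249 ± 0.0170 and 0.216 ± 0.0379 with Neg1 and Neg2 to 0.317 ± 0.0307 at 30 nM for 2 h. At 10 nM and 100 nM it was 0.266 ± 0.00778 and 0.265 ± 0.0337, and the 100 nM libraries (0.228 to 0.294) overlapped those of Neg1 (0.237 and 0.261). It was 0.441 ± 0.0653 at 30 nM for 4 h, 0.142 ± 0.0547 with DMSO, 0.151 ± 0.0768 with Neg1 and 0.196 ± 0.00409 with Neg2 at 4 h.

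**Figure D5:**
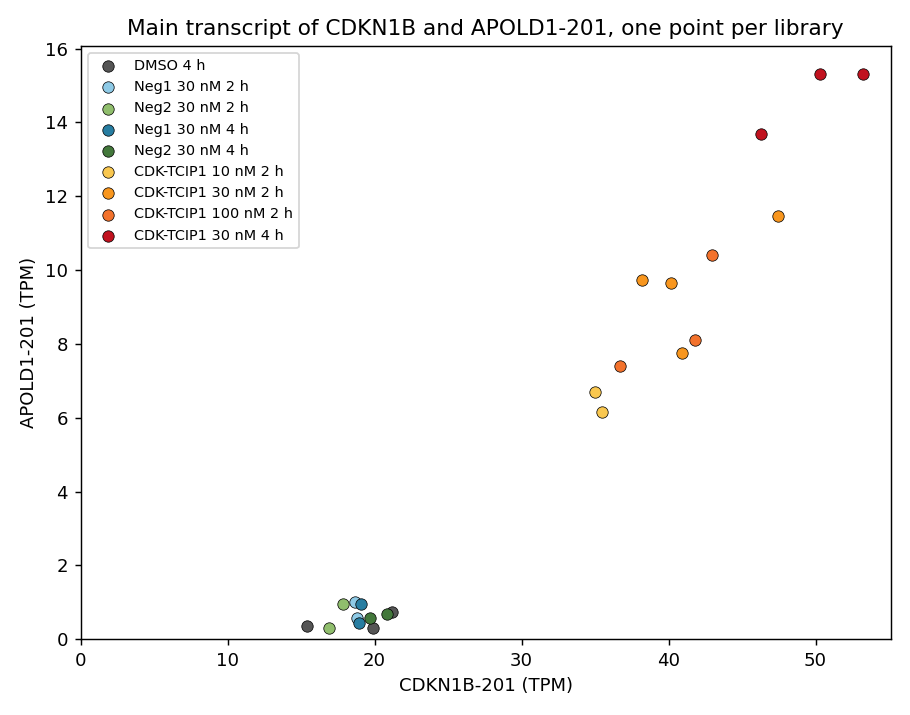
TPM of APOLD1-201 (vertical) against TPM of CDKN1B-201 (horizontal), 1 point per library, both axes linear from 0. Libraries without CDK-TCIP1 cluster at the lower left, and the 3 of 30 nM at 4 h lie highest on the vertical axis, with a ratio of 0.288 to 0.304.

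Whether RNA ran from CDKN1B into APOLD1 could not be measured in these tables. They hold counts for annotated transcripts alone, no annotated transcript of the plus strand covers the 3546 bases between the genes, and reads there enter no value. The single model in the gap, the antisense RNA AC008115.1 (chr12:12723297-12724011), held 0 to 7 counts per library, 12 in all over the libraries with CDK-TCIP1 and 15 over the others. It was too low to test. AC008115.3, annotated as a sense intronic RNA within the bounds of CDKN1B (chr12:12718973-12719521), changed by 0.19 ± 0.67 and -0.52 ± 0.63 and was not called. Inside the long intron of APOLD1-201, the microRNA gene MIR613 held 0 to 4 counts and the pseudogene STX8P1, on the minus strand, 0 to 10 (26 in all with CDK-TCIP1 and 2 without). The strand setting of the counting is not given in the sources used here, so sense and antisense reads cannot be told apart. Read-through as a source of the APOLD1 counts was not tested. Past APOLD1-201, whose end lies 21850 bases before DDX47, DDX47 itself was not called.

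The other tested genes in this stretch of chromosome were called about as often as genes in general. Within 500 kb of CDKN1B the annotation has 39 genes, of which 14 had enough counts to test and 25 did not. Of the 10 that are not among the 4 genes above, 1 was called higher against both Neg1 and Neg2, 1 lower, and 8 neither, beside 21.9% of all genes called against both in 1 direction. DUSP16, a phosphatase that acts on MAP kinases, rose by 0.50 ± 0.12 and 0.53 ± 0.12 (edgeR adjusted p = 0.00349 and 0.00167), a call lost with counts rebuilt from TPM (0.12 and 0.14) and without replicate 1 of Neg1 (adjusted p = 0.0955). CREBL2, a bZIP factor on the far side of GPR19, fell by 0.45 ± 0.11 and 0.59 ± 0.10 (edgeR adjusted p = 0.00196 and 1.09e-04). The lincRNA AC008115.4, on the far side of GPR19, changed by 1.16 ± 0.95 and 2.57 ± 1.08 at a level under 1 CPM and was not called. The next tested genes after DDX47, the pseudogene RPL13AP20 and the receptor gene GPRC5A, were not called either.

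Pairs of neighbours arranged like CDKN1B and APOLD1 give the background. There were 3651 pairs of tested genes on 1 strand with a gap of at most 10 kb. In 500 of them the upstream gene was called higher against both Neg1 and Neg2, and in 98 of those (19.6%) the downstream gene was called higher too. Where the upstream gene was not called higher, the downstream gene was in 429 of 3151 (13.6%). With a gap of at most 5 kb, which CDKN1B and APOLD1 also meet, the counts were 77 of 350 (22%) and 294 of 1997 (14.7%). With at most 50 kb they were 167 of 959 (17.4%) and 840 of 7200 (11.7%). Of all genes 10% were called higher against both compounds. Among the 98 pairs, 63 had a downstream rise at least as large as the upstream one and 41 a rise of at least 2-fold, and CDKN1B with APOLD1 belongs to both sets. These are counts of genes in the same libraries, and no test was run on them.

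The partners and regulators of p27 moved in both directions at 2 h, and most did not pass. Among the cyclins and kinases that p27 binds, 1 of 11 was called higher against both compounds and 3 lower, with median log2 differences of -0.13 and -0.17 beside 0.02 and 0.03 over all genes, of which 10% were called higher and 11.9% lower. CCNE2, cyclin E2 of the G1/S step, fell by 1.04 ± 0.08 and 1.12 ± 0.08, and CCND3, a D cyclin, by 0.33 ± 0.06 and 0.27 ± 0.06. CDK2 rose by 0.17 ± 0.06 and 0.22 ± 0.06, a call lost with counts rebuilt from TPM, against Neg1 with no low-count filter (adjusted p = 0.163), and without any 1 of 5 libraries (30 nM replicates 2 and 3, both of Neg1 and replicate 1 of Neg2, adjusted p = 0.0534, 0.0591, 0.151, 0.187 and 0.103). CCNA2, the cyclin A of S phase, was the other that fell, by 0.27 ± 0.05 and 0.33 ± 0.05. Among the other CDK inhibitors, 1 of 6 tested was called higher and 1 lower (medians -0.07 and -0.06). CDKN2A, the gene of p16, rose by 0.41 ± 0.10 and 0.55 ± 0.10, though not without replicate 2 of Neg1 (0.34, adjusted p = 0.0634). CDKN1A, which encodes p21, fell by 0.40 ± 0.12 and 0.35 ± 0.12, and with counts rebuilt from TPM the change was -0.10 and 0.01. Its call was also lost without replicate 1 or 2 of Neg1 (adjusted p = 0.059 and 0.100), replicate 3 at 30 nM (0.0776) or replicate 2 of Neg2 (0.361), and against Neg2 in the fit of only the groups compared (0.053).

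Of 10 transcription factors known to act on CDKN1B, 1 was called higher and 3 lower (medians -0.24 and -0.18). The background for this list and those that follow is 10% of all genes called higher and 11.9% lower against both compounds. MYC, a known repressor of CDKN1B, fell by 0.99 ± 0.09 and 0.95 ± 0.09. FOXO1, a known activator, fell by 0.39 ± 0.07 and 0.44 ± 0.07, and FOXO3 differed by -0.22 ± 0.13 and -0.24 ± 0.13 without a call. BCL6, which CDK-TCIP1 binds, also fell, by 0.26 ± 0.05 and 0.15 ± 0.05. E2F1 rose by 0.23 ± 0.06 and 0.42 ± 0.06, a call lost without replicate 2 of Neg1 (0.20, adjusted p = 0.108). Of 10 genes that degrade p27, only RNF123, a subunit of the ubiquitin ligase KPC, was called higher (0.32 ± 0.08 and 0.30 ± 0.08), and its direction against Neg1 turned with counts rebuilt from TPM (-0.13). It lost its call without replicate 1 of Neg1 (adjusted p = 0.0545) or of Neg2 (0.11). SKP2 differed by -0.02 ± 0.07 and -0.09 ± 0.07. Of 12 kinases and RNA-binding proteins that act on p27 or its mRNA, 3 were called higher and 2 lower (medians -0.09 and -0.00). SGK1, a kinase that phosphorylates p27, fell by 1.90 ± 0.10 and 1.95 ± 0.10. ELAVL1, the RNA-binding protein HuR, rose by 0.41 ± 0.05 and 0.41 ± 0.05. AKT1 rose by 0.28 ± 0.07 and 0.26 ± 0.07, a call lost with counts rebuilt from TPM (adjusted p = 0.199 and 0.207). SRC fell by 1.24 ± 0.33 and 0.90 ± 0.33, from means of 4.26 and 3.36 CPM. It lost its call without replicate 1 of Neg1 (-0.81, adjusted p = 0.211), without replicate 1, 2 or 3 at 30 nM (0.0669, 0.0849 and 0.116) and without either Neg2 library (0.0749 and 0.269), and against Neg2 with counts rebuilt from TPM (0.215) and in the fit of only the groups compared (0.0667). LYN, a kinase that phosphorylates p27, was the other that rose, by 0.16 ± 0.05 and 0.17 ± 0.05.

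The apolipoprotein L genes, which share their domain with APOLD1 and lie elsewhere in the genome, were read beside it. None of the 5 tested was called higher and 1 was called lower, with medians of -0.31 and 0.05. Over all genes tested, 10% were called higher and 11.9% lower against both compounds. APOL3 fell by 0.46 ± 0.11 and 0.32 ± 0.12, with its call lost without replicate 2 of Neg1 (adjusted p = 0.0717), without replicate 1, 2 or 4 at 30 nM (0.0919, 0.068 and 0.0631), without either Neg2 library (0.13 and 0.167) and with DESeq2 (0.0543). With counts rebuilt from TPM its change against Neg1 was -0.32 (adjusted p = 0.473), also not called, and against Neg2 it was not called with no low-count filter (0.14) or in the fit of only the groups compared (0.0781). APOL1, APOL2, APOL4 and APOL6 differed by -0.11, -0.31, -0.50 and 0.21 against Neg1 and by 0.18, -0.29, 0.63 and 0.05 against Neg2, with none called.

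APOLD1 is known from endothelium, so endothelial markers were read beside it. Of 12 such markers 4 passed the low-count filter, KDR and TEK were at 0 counts in all libraries, and CDH5 and VWF reached at most 0.104 and 0.239 CPM. TIE1, EGFL7, ERG and FLT1 reached at most 0.471, 0.188, 0.214 and 0.794 CPM. ESAM held 0.364 to 2.22 CPM with CDK-TCIP1 and 1.05 to 2.19 without it. For ENG these ranges were 0.357 to 1.84 and 0 to 1.39 CPM, and for CLDN5 0.111 to 1.40 and 0.0504 to 0.729. The summed level of the list was 8.28 to 12.9 CPM with CDK-TCIP1 and 7.45 to 10.5 without it, and most of it was PECAM1 (5.08 to 8.64 CPM), which B cells also express. Markers of T and NK cells summed to 3.29 to 5.74 CPM with CDK-TCIP1 and 3.11 to 4.89 without, myeloid markers to 0.612 to 1.67 and 0.521 to 1.52, and fibroblast and epithelial markers to 34.0 to 61.2 and 41.4 to 51.9. Nearly all of the last sum was DCN (32.8 to 60.5 CPM), and each of the other 6 markers of that list stayed at or below 0.724 CPM. In bulk RNA, fewer cells of a type and less RNA per cell cannot be told apart.

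Ranked by Pearson's r over the 9 group means of log2 CPM, the genes most like CDKN1B among 9486 protein-coding genes were BECN1 (0.997), CNTF (0.995), MED28 (0.994), YIPF3 (0.993) and ALDH16A1 (0.993). Those most like APOLD1 were ZBTB17 (0.995), TRIM66 (0.989), GPALPP1 (0.989), HSP90B1 (0.987) and TRIOBP (0.987). Only HSP90B1 of these 10 is on chromosome 12. CDKN1B and APOLD1 had r = 0.974 with each other, which put APOLD1 at rank 75 for CDKN1B and CDKN1B at rank 32 for APOLD1. GPR19 had r = 0.921 with CDKN1B and DDX47 r = -0.606. The points are group means from 1 set of libraries that fall into groups with and without CDK-TCIP1, so r mostly describes that split. They include the 4 h groups, whose levels entered the choice of CDKN1B and APOLD1, so r between these 2 genes rests in part on that choice. The size of change was not alike, since BECN1 differed by 0.35 ± 0.09 and 0.35 ± 0.09 on the log2 scale at 2 h, CNTF by 1.24 ± 0.18 and 1.25 ± 0.18, and ZBTB17 by 0.74 ± 0.08 and 0.70 ± 0.08.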

How the data were processed

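RNA of SUDHL5 cells was poly(A) enriched and sequenced in paired ends, per the labels' protocols. The submitters' processing notes name FastQC, cutadapt, kallisto and DESeq2 without versions, and for the annotation and strand setting, none is given in the sources used here. Per library, the authors deposited an estimated count and a TPM value for each of 227912 transcripts. Of these, 205964 matched GENCODE 29 by transcript identifier without its version and were summed to 58592 genes. Between 1.16 and 1.28% of counts had no match and were left out. Summed estimated counts were rounded, filtered (filterByExpr), scaled by TMM and fitted with edgeR 4.0.16 (R 4.3.3) in 1 quasi-likelihood model of all 9 groups (14 residual degrees of freedom), with Benjamini-Hochberg adjustment over 17743 genes or 71209 transcripts and a threshold of 0.05. DESeq2 1.42.0 was an alternative. SE is the log2 fold change divided by the root of F. Transcript shares were compared by exact permutation (scipy 1.17.1). The fits were tested on simulated data. The members and lists were chosen with earlier results of these data known. Genes named were the members, the called genes and nearest 3 tested genes on each side within 500 kb of CDKN1B, the 2 largest rises and falls called in each list, all tested APOL genes and the 5 closest profiles. CCNA2, BCL6, LYN, SKP2, FOXO3, RPL13AP20 and GPRC5A were named after their values were seen. Replicate counts differed beyond sampling noise (chi-square per degree of freedom 4.32 to 14.2).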

Additional observations from a re-analysis of the deposited data

How the results depend on the processing

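Both 2 h rises kept their call and direction in every alternative run. Without single libraries the CDKN1B change was 1.33 to 1.45 against Neg1 and 1.41 to 1.53 against Neg2, and that of APOLD1 2.85 to 3.41 and 2.64 to 3.26. With counts rebuilt from TPM the count of genes called was 2877 against Neg1, 3364 against Neg2, 82 from 10 to 30 nM and 839 from 30 to 100 nM, where CDKN1B and APOLD1 from 10 to 30 nM were 0.33 and 0.57, no longer called. From 10 to 30 nM, DESeq2 called 824 genes, no low-count filter 786, and leaving out the 2 libraries set apart, an alternative chosen after seeing the data, 775. From 30 to 100 nM, the fit of only the groups compared called 1205 and that without the 2 libraries 902. Neg1 against Neg2 gave 1 gene with DESeq2 and 143 with no filter, Neg1 against DMSO 1 with DESeq2, 74 with no filter and 1 with only the groups compared, and Neg2 against DMSO 119 with no filter and 42 with only the groups compared. Without the filter 1704 and 2099 transcripts were called. Without single libraries the counts were 3012 to 4676 against Neg1, 3250 to 5231 against Neg2 (lowest without replicate 1 of Neg2), 52 to 431 from 10 to 30 nM, 839 to 2823 from 30 to 100 nM (lowest without replicate 1 of 100 nM), 0 to 83 for Neg1 against Neg2 and 0 to 2 for Neg1 against DMSO, with 1053 to 2328 and 1134 to 2933 transcripts. From 10 to 30 nM the changes were then 0.29 to 0.41 for CDKN1B and 0.65 to 0.92 for APOLD1.

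Small changes that were not called turned direction. With counts rebuilt from TPM, GPR19 was 0.14 from 10 to 30 nM and -1.01 for Neg1 against Neg2, where APOLD1 was 0.24 and DDX47 -0.020. CDKN1A against Neg2 was 0.0070 and RNF123 against Neg1 -0.13, both of which had been called. For Neg1 against Neg2, APOLD1 was 0.13 without transcripts sharing exonic bases and 0.15 without the 2 libraries, where DDX47 was -0.0021. Without single libraries, DDX47 was -0.14 to 0.10 from 10 to 30 nM, and APOLD1-203 against Neg1 -0.16 to 0.41. For Neg1 against Neg2, APOLD1 was -0.48 to 0.15, DDX47 -0.040 to 0.048 and GPR19 -0.15 to 0.27. Against DMSO, CDKN1B with Neg1 was -0.080 to 0.12, GPR19 with Neg1 -0.56 to 0.37, DDX47 with Neg2 -0.077 to 0.020 and GPR19 with Neg2 -1.12 to 0.67. Except where fewer libraries or genes entered, the cause was not tested. DDX47 gave no value without transcripts sharing exonic bases, as all of its transcripts share some.

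Replicate numbers showed no pairing of the samples, since deviations of same-numbered samples from their group means correlated at -0.0424 to 0.0443. With a replicate block the counts were 4534, 5089, 442 and 2121 genes in the 4 comparisons of CDK-TCIP1, 0 in the others, and 1962 and 2462 transcripts. CDKN1B was 1.46 and 1.55 and APOLD1 3.25 and 3.07 with the block. GPR19 was then 0.048 from 10 to 30 nM and -0.037 for Neg2 against DMSO, CDKN1B -0.017 for Neg1 against DMSO, DDX47 0.0013 for Neg2 against DMSO and APOLD1-203 0.076 against Neg2. Among the named genes, APOL3 lost its call against Neg2 with the block (-0.34, adjusted p = 0.0519). Depth limits GPR19, AC008115.4 and the split of APOLD1 transcripts, and AC008115.1, MIR613 and STX8P1 were too low to test.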
